A study of Mus musculus with 2 samples.

Results

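The smooth muscle cells of the mouse aorta were taken as the cells that the deposited cell table names VSMC, for vascular smooth muscle cell. They were 2159 of the 5451 cells, 1103 of 2260 cells in library 1 and 1056 of 3191 cells in library 2, the library being the suffix of the cell barcode. Both libraries were droplet single-cell RNA libraries (10x Genomics v2) of a dissociated aorta from a wild-type C57/BL6 mouse, 12 weeks old, labelled female and fed chow. The vessel ran from the root to the bifurcation at the femoral arteries, perivascular fat was dissected away, and the cells were freed with collagenase, hyaluronidase and DNase. The libraries are titled WT1 and WT3 and form 1 group with no treatment, and nothing in the tables used here ties suffix 1 or 2 to a title. The comparisons are therefore between VSMC and the other 9 named populations of the same libraries (Fibro 1 and 2, EC 1 to 3, Mono 1 and 2, Macro and Neuron).

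Smooth muscle cells build the middle layer of the aortic wall and set its tone. Calcium drives the kinase that phosphorylates the regulatory light chain of myosin, myosin then pulls on actin filaments, and a phosphatase that is itself under the control of cyclic GMP switches the pull off. The same cells lay down elastin, collagen and basement membrane, and in disease they can lose contractile genes and take on matrix, inflammatory or cartilage genes, a state called modulated.

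Before the results, library 2 went against its label. Xist, the non-coding RNA of the inactive X chromosome, had 7900 UMIs (unique molecular identifiers, each 1 captured RNA molecule) in 1948 of 2260 cells of library 1, and 5 UMIs in 5 of 3191 cells of library 2. The Y-linked gene Ddx3y had 0 UMIs in library 1 and 281 UMIs in library 2, and Eif2s3y, Kdm5d and Uty were likewise at 0 in library 1 and above 0 in library 2. Depth also differed: the median VSMC held 4648 UMIs from 1925 genes in library 1 and 7154 UMIs from 2501.5 genes in library 2, and all VSMC of a library held 5958242 and 7594631 UMIs. Mitochondrial genes held a median of 5.76% and 6.52% of the UMIs of a VSMC, against medians of 2.27% to 4.44% in the other populations. The libraries shared 12 barcodes, 1 of them a VSMC in both, and 19 and 10 VSMC were called doublets. With 2 libraries, differences in animal, sex and handling cannot be told apart, so results are given for each library.

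VSMC made up 48.8% of the cells of library 1 (95% exact interval 46.7 to 50.9) and 33.1% of library 2 (31.5 to 34.8), a mean of 40.9% ± 11.1 (SD, n = 2 libraries). The intervals cover counting error only and do not overlap, so the share differed between libraries by more than sampling of cells. A share of cells after digestion counts the cells that came through dissociation.

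The name was compared with 6 defining genes of smooth muscle. Acta2, the smooth muscle actin, had 18481 and 16589 CPM (counts per 1000000 UMIs) in VSMC of libraries 1 and 2, against 824 and 529 CPM in the fibroblast populations together. Myh11, the smooth muscle myosin heavy chain, had 2366 and 2249 CPM in VSMC, against 96.1 and 54.3 CPM in fibroblasts. Tagln, an actin-binding protein, had 9931 and 9343 CPM in VSMC, against 390.2 and 206 CPM in fibroblasts. Both VSMC values lay above both fibroblast values for each of these genes. This is a description and not a test of the name, since the name may rest on the same counts. Cnn1 (calponin, which binds actin and restrains myosin) had 1616 and 1490 CPM against 61.7 and 39.9 CPM, and Lmod1 (which nucleates actin filaments) had 930.0 and 863 CPM against 75.2 and 56.7 CPM. Npnt, the basement membrane ligand of integrin alpha 8, had 452 and 556 CPM in VSMC, against 20.9 and 17.7 CPM in fibroblasts.

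Smooth muscle RNA was also counted in cells that should lack it, and its source was not tested. Mono 1, the population richest in macrophage markers, should not make smooth muscle RNA, yet it had Acta2 at a level that VSMC exceeded 26.1-fold and 35.9-fold, and for the 6 genes this ratio ran from 16.1-fold (Myh11, library 1) to 52.1-fold (Tagln, library 2). In cells thinned to 2000 UMIs, Myh11 had a UMI in 98.1% and 96.5% of VSMC, against 22.8% and 11.2% of Mono 1 cells. Without thinning the shares were 99.3% and 99.5% of VSMC, against 37.6% and 23.3% of Mono 1 cells, at median depths of 4648 and 7154 UMIs in VSMC and 3574 and 4422 UMIs in Mono 1. Thinning left out 148 and 15 VSMC and 32 and 4 Mono 1 cells that were shallower.

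**Figure D1:**
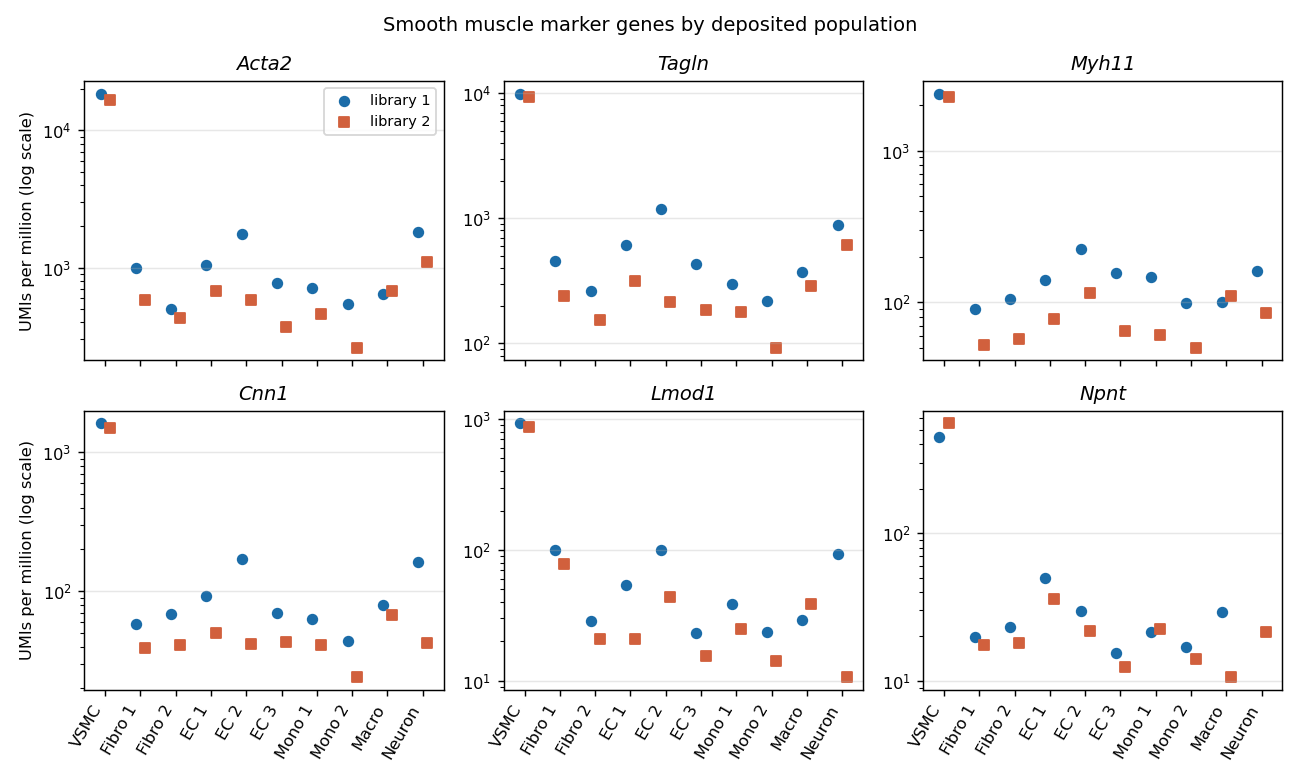
Levels of 6 smooth muscle marker genes (CPM, log scale) in each of the 10 deposited populations, 1 point per library. VSMC stand above every other population in both libraries, and Acta2 in the other populations runs from 262 CPM (Mono 2, library 2) to 1824 CPM (Neuron, library 1).

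Markers of most other cell types were low in VSMC, whereas those of red cells were not. The 8 endothelial markers summed to 92.8 and 102 CPM in VSMC, against 164 and 170.4 CPM in Mono 1, and the 8 macrophage and monocyte markers to 148 and 108 CPM, against 32174 and 29151 CPM in Mono 1. The 4 T cell markers in the files summed to 3.69 and 1.84 CPM, the 3 B cell markers to 1.85 and 2.37 CPM and the 6 Schwann cell markers to 11.4 and 24.1 CPM in VSMC, with Sox10 at 0 in library 2. The 8 fibroblast markers summed to 2697 and 2298 CPM in VSMC, against 50701 and 52983 CPM in fibroblasts and 1308 and 1937 CPM in Mono 1. Haemoglobin genes, the markers of red cells, summed to 7346 and 3424 CPM in VSMC, against 1419 CPM (Mono 2, library 2) to 23324 CPM (EC 2, library 2) in the other populations. What these RNAs contribute to the results was not tested.

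How the deposited names were made is not stated, and they may rest on the same counts, so a comparison by those names is given as a description only. For tests, each UMI was put at random in 1 of 2 parts, the cells were clustered again on the first part, and the second part was summed by library and cell class and tested with edgeR. The new clustering gave 17 clusters, of which 4, with 2135 cells, carried the smooth muscle markers, and these held 2124 of the 2159 VSMC (98.4%). The 11 other cells in them were 7 Neuron, 2 Fibro 1 and 2 EC 2 cells. Of the 35 VSMC that fell outside, 28 joined fibroblast clusters, where they had 9444 CPM of Acta2 and 5365 CPM of the fibroblast proteoglycan Dcn together, and 18 of those 28 were called doublets.

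Smooth muscle clusters differed from fibroblast clusters in 4508 of 10737 genes tested (edgeR quasi-likelihood test, Benjamini-Hochberg adjusted p under 0.05), with 2175 higher (20.3%) and 2333 lower (21.7%). Against the mean of the fibroblast, endothelial and immune classes, 2721 genes were higher (25.3%) and 2508 lower (23.4%). Lower genes outnumbered higher ones in that contrast with RLE size factors (2293 higher and 2909 lower), DESeq2 (1715 and 2361) and deposited names (2968 and 3436). The median log2 fold over all genes was 0.01 and 0.00 in these comparisons. These shares are the background for the gene lists described next. The p-values measure how far class differences varied between the 2 libraries, once a library shift common to all classes was removed. Clusters were named from the 6 defining genes and from markers of the other classes, among them Dcn, Lum, Col1a1, Pdgfra and Clec3b, so the folds of those genes were set in part by the naming and are descriptions. In all that follows, levels are CPM by the deposited names and folds are log2 folds of smooth muscle clusters over fibroblast clusters from the second part of the UMIs, unless another class is named.

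Contractile apparatus genes were higher in smooth muscle, 19 of 20 against fibroblasts with 0 lower, at a median log2 fold of 3.82 where all genes had 0.01. Of the 20, 5 had named the clusters (Acta2, Myh11, Tagln, Cnn1 and Lmod1), and of the other 15 genes 14 were higher and 0 lower, at a median of 3.20. The log2 folds of the naming genes, given with no test, were 4.47 for Acta2, 4.74 for Myh11 and 4.69 for Tagln. The regulatory light chain gene Myl9 had 7079 and 6848 CPM in VSMC, against 518 and 322.5 CPM in fibroblasts, a log2 fold of 3.97 ± 0.15 (SE). The light chain kinase gene Mylk had 1007 and 1191 CPM in VSMC, against 76.9 and 51.3 CPM in fibroblasts (4.06 ± 0.15). Tropomyosin 2 (Tpm2) had 4367 and 4467 CPM in VSMC, against 280.2 and 199 CPM in fibroblasts (4.09 ± 0.15). For these genes the libraries of each cell type lay far closer to each other than the cell types did. Actg2, the actin better known from gut muscle, had 294 and 427 CPM in VSMC, against 10.1 and 11.7 CPM in fibroblasts (4.43 ± 0.17). Smaller differences were found for the shared light chain Myl6 (2.30 ± 0.14) and the non-muscle heavy chain Myh10 (1.51 ± 0.14). The other non-muscle heavy chain, Myh9, was the 1 member not called against fibroblasts, at 87.6 and 61.5 CPM in VSMC and 104 and 59.6 CPM in fibroblasts, a fold of -0.06 ± 0.15. Myh9 was also the 1 member that was lower than the mean of the other classes, with a fold of -0.74 ± 0.12. The 20 genes summed to 64157 and 61515 CPM in VSMC, against 5612 and 4015 CPM in fibroblasts.

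The promoters of these genes are shown because many smooth muscle genes are known to be driven by serum response factor with myocardin through the CArG box, a CC, a run of A or T, and a GG. The 250 bases before the start of each gene, from RefSeq on GRCm38.p6, were searched on both strands. A CArG box was found in 482 of 32851 promoters (1.47%), in 3 of 19 promoters of the 17 contractile genes with an entry (15.8%) and in 4 of 36 promoters of the 31 genes that, as described later, stood 4-fold over every other population and had an entry (11.1%). The 3 contractile genes were Myl9, Myl6 and Vcl, the gene of the focal adhesion protein vinculin, and the 4 were Fbxl22, Filip1l, Myl9 and Myom1. Each sequence runs 5′ to 3′ on the gene's strand and ends at the base before the start, with the box in capitals.
Fbxl22, chr9:66514594-66514843, minus strand: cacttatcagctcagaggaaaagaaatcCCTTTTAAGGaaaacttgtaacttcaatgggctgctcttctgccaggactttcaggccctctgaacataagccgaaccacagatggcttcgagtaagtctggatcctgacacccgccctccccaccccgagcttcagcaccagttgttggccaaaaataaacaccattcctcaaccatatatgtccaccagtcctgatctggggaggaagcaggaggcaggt
Myl9, chr2:156775214-156775463, plus strand: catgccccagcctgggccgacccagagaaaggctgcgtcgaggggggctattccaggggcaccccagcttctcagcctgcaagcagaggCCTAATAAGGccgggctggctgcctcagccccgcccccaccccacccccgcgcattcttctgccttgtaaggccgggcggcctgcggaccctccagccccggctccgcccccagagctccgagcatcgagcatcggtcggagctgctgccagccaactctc
Myl6, chr10:128493010-128493259, minus strand: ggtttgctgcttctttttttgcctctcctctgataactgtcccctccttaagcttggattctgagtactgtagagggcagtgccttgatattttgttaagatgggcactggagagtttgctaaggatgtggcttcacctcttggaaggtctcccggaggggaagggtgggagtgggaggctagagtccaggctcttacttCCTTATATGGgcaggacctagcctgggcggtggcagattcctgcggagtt
Vcl, chr14:20929148-20929397, plus strand: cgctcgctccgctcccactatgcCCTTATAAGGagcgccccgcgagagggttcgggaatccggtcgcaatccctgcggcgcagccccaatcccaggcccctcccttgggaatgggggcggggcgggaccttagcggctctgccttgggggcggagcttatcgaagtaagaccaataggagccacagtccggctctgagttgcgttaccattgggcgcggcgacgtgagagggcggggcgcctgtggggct
The box began 222 bases before the start in Fbxl22, 161 in Myl9, 50 in Myl6 and 227 in Vcl. A match describes the letters and is not a shown binding site, and a promoter with no match says only that these letters are not in this window. Myh11, Tagln, Actg2, Csrp2, Nexn, Nov, Sh3bgr, Tcap and Mir143hg had no entry.

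**Figure D2:**
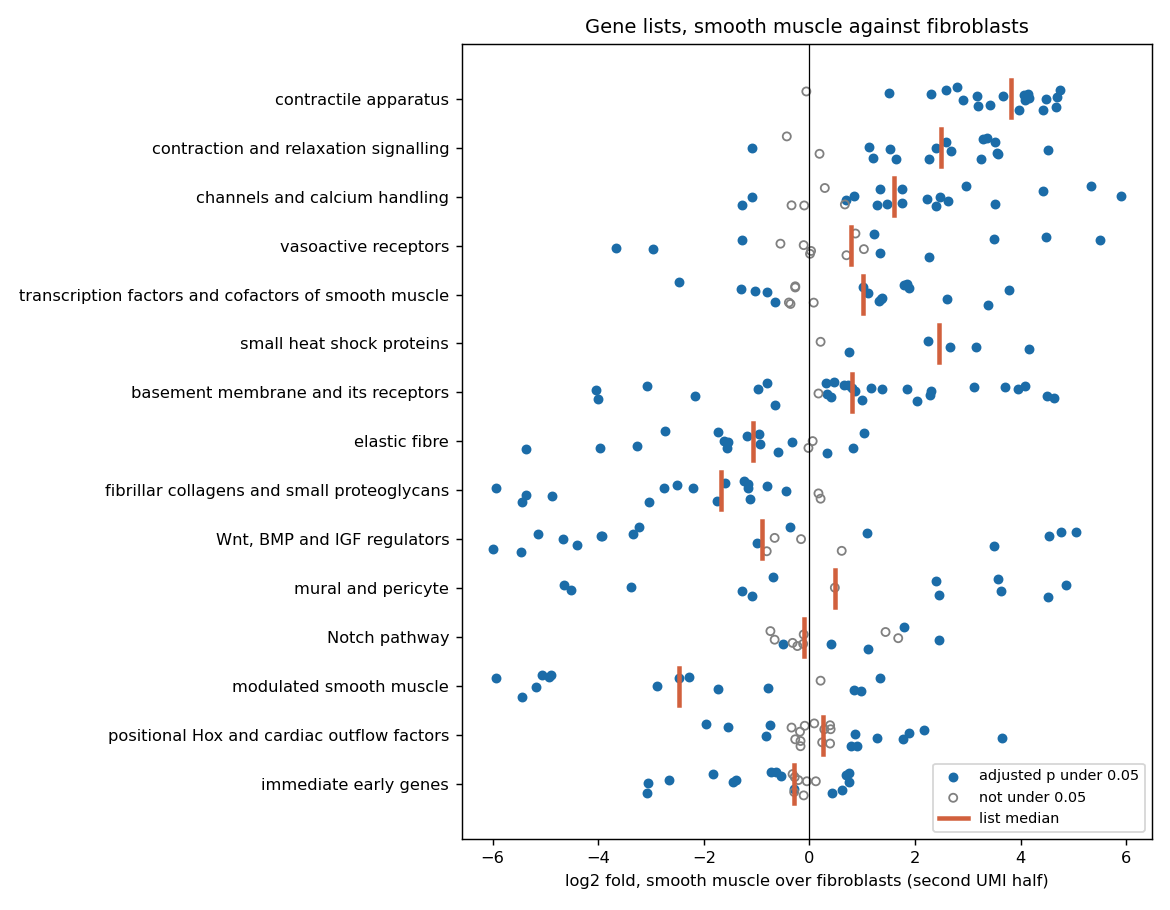
Log2 fold of smooth muscle over fibroblast clusters for the tested members of 15 gene lists, 1 point per gene, filled where the adjusted p was under 0.05, with the list median as a bar. Genes that named the clusters are included. The contractile list has its median at 3.82 and the fibrillar collagen list at -1.68, while the elastic fibre list has most points left of 0.

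Genes that turn contraction on and off were mostly higher too, 15 of 18 tested with 1 lower, at a median fold of 2.48. Rgs5, which shortens signals from G protein-coupled receptors, had 1095 and 1348 CPM in VSMC, against 56.3 and 48.0 CPM in fibroblasts, a fold of 4.52 ± 0.15. Ppp1r14a, the inhibitor of myosin phosphatase, had 1033 and 993 CPM in VSMC, against 78.9 and 68.7 CPM in fibroblasts (3.55 ± 0.14). The targeting subunit of that phosphatase, Ppp1r12a, was also higher (3.24 ± 0.15). The soluble guanylyl cyclase subunits, which make cyclic GMP in answer to nitric oxide, were higher, Gucy1a3 at 282 and 257 CPM in VSMC against 24.6 and 18.6 CPM in fibroblasts (3.51 ± 0.16) and Gucy1b3 at 205 and 173 CPM against 19.2 and 16.9 CPM (3.29 ± 0.17). In each of these genes both VSMC values lay above both fibroblast values, by the deposited names. How many of all genes do so was not counted. The GTPase gene Rhoa had 542 and 491 CPM in VSMC and 501 and 430.0 CPM in fibroblasts and was not called, with a fold of 0.19 ± 0.13, whereas the kinase it activates, Rock1, was higher by 2.58 ± 0.14. Arhgap42, which switches Rhoa off, was the 1 lower member (-1.09 ± 0.34), at 6.55 and 4.61 CPM in VSMC and 12.5 and 15.2 CPM in fibroblasts.

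Among channels and calcium handling genes 16 of 22 tested were higher and 2 lower, at a median of 1.61. P2rx1, the channel opened by ATP from sympathetic nerves, had 52.5 and 81.1 CPM in VSMC, against 1.35 and 1.09 CPM in fibroblasts (5.90 ± 0.34). Kcnmb1, the beta subunit that tunes the large-conductance potassium channel to calcium, had 148 and 174 CPM in VSMC, against 7.76 and 4.22 CPM in fibroblasts (4.42 ± 0.20), and its pore subunit Kcnma1 was higher by 2.22 ± 0.24. The ryanodine receptor gene Ryr2, a calcium release channel, was higher by 3.52 ± 0.37. The L-type calcium channel pore Cacna1c had only 22.7 and 23.2 CPM in VSMC, against 13.2 and 12.7 CPM in fibroblasts (0.85 ± 0.27). Both subunits of the ATP-sensitive potassium channel were lower in smooth muscle than in fibroblasts, Kcnj8 by a fold of -1.28 ± 0.16 and Abcc9 of -1.08 ± 0.13, and both were higher than the mean of the other classes, by 0.90 ± 0.23 and 1.31 ± 0.15.

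Receptors for vasoactive signals were split, with 6 of 16 tested higher and 3 lower than in fibroblasts. The serotonin receptor gene Htr1b had 93.5 and 103 CPM in VSMC, against 2.70 and 2.31 CPM in fibroblasts (5.51 ± 0.28). Ramp1, the partner that turns the receptor Calcrl into a receptor for the dilator peptide CGRP, had 446 and 566 CPM in VSMC, against 16.2 and 22.6 CPM in fibroblasts (4.48 ± 0.17), and Calcrl itself was higher by 2.26 ± 0.27. The thromboxane receptor Tbxa2r was higher by 1.34 ± 0.21. The endothelin receptor Ednra, which constricts, had 11.1 and 13.7 CPM in VSMC and 26.6 and 25.6 CPM in fibroblasts, a fold of -1.27 ± 0.26, and was higher than the mean of the other classes by 2.25 ± 0.65. The prostacyclin receptor Ptgir (-2.97 ± 0.60) and the sphingosine phosphate receptor S1pr2 (-3.66 ± 0.36) were lower than in fibroblasts. Adrenergic receptor genes were near the detection limit, with Adra1a at 3.19 and 3.42 CPM, Adra1b at 5.04 and 6.72 CPM and Adra1d at 2.01 and 1.05 CPM in VSMC, against 0.674 and 0, 4.38 and 10.1, and 1.01 and 0.272 CPM in fibroblasts, and none of these 3 passed the filter for a test.

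Of 21 tested transcription factors and cofactors of smooth muscle 11 were higher and 5 lower, at a median of 1.01. Myocd (myocardin), the coactivator of serum response factor, had 49.7 and 60.0 CPM in VSMC, against 6.75 and 2.31 CPM in fibroblasts (3.38 ± 0.27). Srf itself had 36.1 and 31.3 CPM in VSMC, against 17.2 and 9.66 CPM in fibroblasts (1.35 ± 0.25). The LIM domain cofactor Csrp2 had 2296 and 3478 CPM in VSMC, against 426 and 499 CPM in fibroblasts (2.61 ± 0.13), and Csrp1 was higher by 3.77 ± 0.14. Klf4, a factor that represses contractile genes in injured vessels, had 63.6 and 48.6 CPM in VSMC, against 322 and 286.9 CPM in fibroblasts (-2.47 ± 0.15). The other coactivators of serum response factor, Mkl1 (-0.39 ± 0.33) and Mkl2 (-0.36 ± 0.21), were not called.

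Small heat shock proteins, several of which bind filaments in muscle, were higher in 5 of 6 tested, at a median of 2.45. Hspb1 had 1226 and 1575 CPM in VSMC, against 136 and 177 CPM in fibroblasts (3.16 ± 0.14), Hspb6 had 314 and 320.0 CPM against 20.2 and 15.1 CPM (4.15 ± 0.17), and Hspb7 had 508 and 642 CPM against 80.9 and 92.0 CPM (2.67 ± 0.14). Hspb8 had 66.0 and 99.5 CPM in VSMC and 60.4 and 79.4 CPM in fibroblasts and was not called (0.21 ± 0.15).

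The matrix genes divided by kind. Basement membrane genes and their receptors were higher in 21 of 29 tested and lower in 7, at a median of 0.80. Itga8, the integrin chain that binds Npnt, had 1043 and 1108 CPM in VSMC, against 72.2 and 60.9 CPM in fibroblasts (3.94 ± 0.15), and the laminin receptor chain Itga7 was higher by 4.63 ± 0.27. Col18a1, whose end fragment is endostatin, had 660.4 and 705 CPM in VSMC, against 40.8 and 37.3 CPM in fibroblasts (4.09 ± 0.15). The laminin chain Lama5 was higher by 3.70 ± 0.30, while the chains Lama2 (-3.08 ± 0.17) and Lamb1 (-4.01 ± 0.32) and the linker nidogen Nid1 (-4.05 ± 0.16) were lower. The ligand Npnt and its receptor chain Itga8 were thus both high in VSMC as a population, and the laminin chains went both ways. Whether single cells held both Npnt and Itga8 was not tested.

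Elastic fibre genes were lower than in fibroblasts in 13 of 18 and higher in 3, at a median of -1.08, and higher than the mean of the 3 other classes in 13. Eln (elastin) had 1977 and 1341 CPM in VSMC, against 1359 and 1207 CPM in fibroblasts, a fold of 0.33 ± 0.13 (adjusted p = 0.0208) that was not called under 4 of the 8 other settings, RLE size factors, DESeq2, no library term, and deposited names with all UMIs. The fold was 0.48 in library 1 alone and 0.12 in library 2 alone, with no test. Within fibroblasts Fibro 1 had 1963 and 1737 CPM and Fibro 2 had 243 and 297 CPM of Eln, and EC 1 had 1642 and 2314 CPM, so that VSMC overlapped Fibro 1 and EC 1. The microfibril gene Fbn1 (-1.57 ± 0.13), Mfap5 (-2.74 ± 0.13) and Fbln1 (-5.36 ± 0.16) were lower. Fbln5, which organises elastin on microfibrils, had 567 and 452 CPM in VSMC, against 1004 and 941 CPM in fibroblasts (-0.94 ± 0.12). The exceptions were Ltbp1, which tethers latent TGF beta (0.82 ± 0.13), and the large proteoglycan Vcan (1.04 ± 0.14), both higher.

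Fibrillar collagens and small proteoglycans were lower in 16 of 18 and higher in 0, at a median of -1.68, and in 13 of 15 without the naming genes Dcn, Lum and Col1a1 (median -1.24). Col1a1 had 594 and 505 CPM in VSMC, against 4116 and 4984 CPM in fibroblasts (-3.04). Dcn had 303 and 278 CPM in VSMC, against 13063 and 15230 CPM in fibroblasts (-5.94), and Mono 1 had it at 257 and 422 CPM, so that the VSMC level did not stand out from that of macrophages. Its relative Bgn (biglycan) had 3420 and 3680 CPM in VSMC and 2963 and 3542 CPM in fibroblasts and was not called (0.17 ± 0.13), but it was higher than the mean of the other classes by 1.49 ± 0.10. The other uncalled member was Col8a1 (0.21 ± 0.18), which stood apart within smooth muscle, as described later.

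Secreted regulators of Wnt, BMP and IGF signals were lower in 11 of 20 tested and higher in 5. Sost (sclerostin, a Wnt inhibitor known from bone) had 570.1 and 522 CPM in VSMC, against 29.0 and 15.5 CPM in fibroblasts (4.54 ± 0.16). Its UMIs were found in 51.1% and 51.9% of thinned VSMC and 2.68% and 2.33% of thinned Mono 1 cells, or 68.3% and 73.4% of VSMC and 8.29% and 4.58% of Mono 1 cells unthinned. Wnt16 had 33.6 and 25.8 CPM in VSMC, against 2.02 and 0.408 CPM in fibroblasts (4.76 ± 0.44). The Wnt inhibitor Wif1 had 42.1 and 33.3 CPM in VSMC, against 3.37 and 3.54 CPM in fibroblasts (3.50 ± 0.32). VSMC thus held more RNA for a Wnt ligand and for a pair of Wnt inhibitors than fibroblasts in both libraries. Igfbp2, an IGF binding protein, had 55.7 and 58.7 CPM in VSMC, against 0.674 and 0.952 CPM in fibroblasts (5.05 ± 0.33), and its 332 and 446 UMIs lay in 73 of 1103 and 105 of 1056 VSMC. Igfbp7, which is abundant in vessels, was higher by 1.08 ± 0.14. The binding proteins Igfbp3 (-5.99 ± 0.26) and Igfbp6 (-5.46 ± 0.16), the growth factors Bmp4 (-5.14 ± 0.22) and Igf1 (-4.40 ± 0.15) and the Wnt antagonist Sfrp2 (-3.94 ± 0.14) were lower in smooth muscle.

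Mural and pericyte genes, shared by the cells that wrap vessels, were higher in 6 of 13 tested and lower in 6. The adhesion molecule Mcam had 238 and 287 CPM in VSMC, against 6.07 and 7.75 CPM in fibroblasts (4.86 ± 0.19), and the proteoglycan Cspg4 had 144 and 159 CPM against 11.5 and 10.3 CPM (3.63 ± 0.19). The growth factor receptor Pdgfrb was lower (-0.69 ± 0.14), as were Ndufa4l2 (-4.65 ± 0.18) and Vtn (-3.38 ± 0.45), which are high in pericytes of other tissues. In the Notch pathway 4 of 13 tested were higher and 1 lower. The receptor Notch3, which keeps arterial smooth muscle mature, was higher by 2.46 ± 0.30 and its target Heyl by 1.11 ± 0.15. Notch2 was higher by 0.40 ± 0.14, a call that 6 of the 8 other settings did not make, with folds of 0.13 to 0.40, and it was 0.19 and 0.52 in libraries 1 and 2 alone.

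Genes of modulated smooth muscle were lower than in fibroblasts in 11 of 15 and higher in 3, at a median of -2.47, and in 8 of 12 without the naming genes Dcn, Lum and Pdgfra (median -2.02). Spp1 (osteopontin) had 1.34 and 0.263 CPM in VSMC, against 37.8 and 21.6 CPM in fibroblasts (-5.18 ± 0.44), and its 10 UMIs in VSMC came from 5 and 2 cells. Ly6a, a stem cell antigen, had 33.6 and 51.4 CPM in VSMC, against 1214 and 1232 CPM in fibroblasts (-4.89 ± 0.16). The higher members were the lectin Lgals3 (1.33 ± 0.19), fibronectin Fn1 (0.85 ± 0.12) and thrombospondin Thbs1 (0.98 ± 0.28). Fn1 had 749 and 948 CPM in VSMC, against 156 and 143 CPM in Fibro 1 and 938 and 1149 CPM in Fibro 2. For Fn1, VSMC thus lay above Fibro 1 and below Fibro 2 in both libraries. Several of the lower members, such as Dcn, Lum and Pdgfra, also mark fibroblasts. Of 21 genes of heritable thoracic aortic aneurysm 6 were higher and 8 lower, and Acta2, Myh11, Mylk, Flna, Prkg1 (the kinase of cyclic GMP, 1.53 ± 0.29) and Tgfbr1 (1.52 ± 0.16) were the higher ones, Acta2 and Myh11 having named the clusters. The receptor chain Tgfbr2 was lower (-1.56 ± 0.14).

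Position and origin genes of the Hox and outflow tract families were higher in 8 of 24 tested and lower in 4. Tbx20, a factor of the developing heart, had 10.7 and 14.7 CPM in VSMC, against 0.337 and 1.36 CPM in fibroblasts (3.65 ± 0.51), and Mef2c had 258 and 267 CPM against 67.1 and 72.8 CPM (1.88 ± 0.14). Hoxa7 (0.87 ± 0.19) and Hoxc10 (1.27 ± 0.36) were higher and Hoxa5 (-0.82 ± 0.23) lower. Immediate early genes, which answer to stress and to digestion, were lower in 10 of 22 and higher in 5. Junb (-1.82 ± 0.13) and Egr1 (-1.45 ± 0.13) were lower, Btg2 (0.75 ± 0.13) and Cyr61 (0.74 ± 0.13) higher, and Fos was lower by a fold of -0.30 ± 0.13 that 5 of the 8 other settings did not call.

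Most of the largest folds over fibroblasts were in genes of low level, with P2rx1 and Htr1b, described above, among them. Slc22a2, a transporter of organic cations, had 61 and 121 UMIs in VSMC and 0 UMIs in fibroblasts of both libraries, and was therefore at least 10.1-fold and 39.0-fold higher, with 3 UMIs per library set for the fibroblasts. Bex4 had 128 and 280 UMIs in VSMC and 1 and 5 UMIs in fibroblasts, a ratio of 51.8 after scaling to depth (95% counting interval 23.6 to 142). Acan, the cartilage proteoglycan aggrecan, had 64 and 126 UMIs in VSMC and 2 and 2 UMIs in fibroblasts, a ratio of 36.2 (13.9 to 134). Each of these ratios stood far above 1, though the counting intervals were wide. Srpk3, a kinase of muscle, Lancl3, Casz1 and Mlf1 were also among the largest. Casz1 was not particular to VSMC, with 7.89 and 14.6 CPM there and 53.3 and 47.0 CPM in EC 2. Bex4 was not either, with 21.5 and 36.9 CPM in VSMC and 14.8 and 21.4 CPM in EC 1.

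The largest folds in the other direction included those of chemokine genes and of Clec3b. The chemokine Ccl11 had 5.87 and 4.74 CPM in VSMC, against 415 and 319 CPM in fibroblasts (-6.28 ± 0.20), and the lectin Clec3b had 53.9 and 43.8 CPM in VSMC, against 2764 and 2680.0 CPM in fibroblasts (-6.12, a gene that named the clusters). Dact2, a Wnt pathway modulator, had 3 UMIs in VSMC and 282 in fibroblasts, and the B cell chemokine Cxcl13 had 6 UMIs and 503 UMIs. The largest fold in the test was that of the chemokine Cxcl14 (-7.82 ± 0.79). By the deposited names the gap was smaller, because VSMC of library 2 held 25 Cxcl14 UMIs, all in 1 cell, and VSMC had 0.168 and 3.29 CPM against 18.5 and 13.2 CPM in fibroblasts.

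To ask which genes set VSMC apart from every other population at once, the level in VSMC was divided by that of the highest other population. Of 8363 genes with at least 50 UMIs in VSMC of each library 39 (0.466%) were at least 4-fold higher in both libraries, 12 of them in the contractile list. This is a description, since the names may rest on the same counts. The leading gene was Fbxl22, an F-box protein of the muscle Z-line, at 303 and 273 CPM in VSMC and 24.3 and 22.4 CPM in Mono 1, the next highest, a ratio of 12.5 and 12.2. Tcap (telethonin, a titin cap protein known from striated muscle) had 501 and 726 CPM in VSMC and 41.8 and 60.2 CPM in Macro, a ratio of 12.0 and 12.1. Myh11 followed with 10.5 and 19.4, Acta2 with 10.1 and 15.1 and Cnn1 with 9.41 and 22.2. Sh3bgr (8.40 and 18.8), whose name comes from its SH3-binding region, and Sost (8.23 and 16.3) were among the first 10. Of the 6 defining genes each was among these 39, with Npnt at 6.53 and 15.4. Where Neuron cells, 12 and 32 in number, held 0 UMIs, the ratio was taken against 3 counts, which set it for Sost in both libraries and for Npnt in library 1.

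Myom1 (myomesin) and Dmpk (the kinase of myotonic dystrophy), which like Tcap are better known from striated muscle, were among the 39 and are named after their values were seen. Dmpk had 276 and 270.1 CPM in VSMC, against 45.5 and 31.0 CPM in fibroblasts, and Myom1 had 140.3 and 149 CPM, against 9.78 and 5.85 CPM. The 6 striated muscle markers in the files, among them thick filament and troponin genes, summed to 32.4 and 24.5 CPM in VSMC. Fibro 1, the next highest population, had 13.5 and 9.68 CPM. Tnnt2 (cardiac troponin T) had 19.6 and 12.1 CPM in VSMC. Actc1 held 6.88 and 4.08 CPM of the VSMC sum, with a UMI in only 0.209% and 0.192% of thinned VSMC. Just inside the threshold stood Itih4, with a smaller ratio of 4.24, and just outside stood Kcnmb1 with 3.82. Neuron, with 12 and 32 cells, was the highest other population for 9 of the 39 genes in library 1 and 18 in library 2, and 7 of its cells fell in smooth muscle clusters. Without Neuron 67 genes passed, and with library 2 alone 69 passed.

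**Figure D3:**
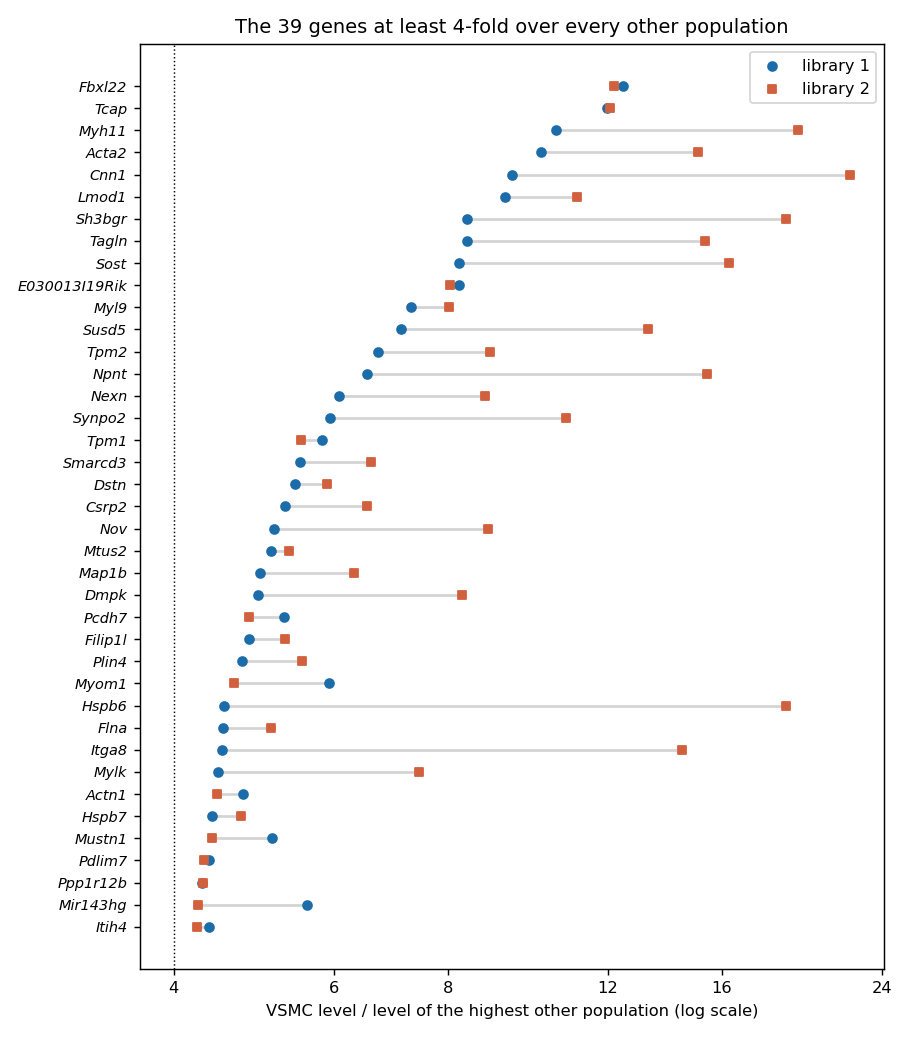
Ratio of the VSMC level to the level of the highest other population (log scale) for the 39 genes past 4-fold in both libraries, 1 point per library joined by a line. Fbxl22 and Tcap lead with ratios near 12 in both libraries, while Cnn1 runs from 9.41 to 22.2.

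Among the defining genes Npnt, Acta2 and Myh11 varied more among VSMC than the median gene, and Lmod1 lay near it. Rgs5, Fos and the other genes named below were picked as the most variable. Their larger spread than that of the defining genes was set by that choice. Spread was measured in cells thinned to 2000 UMIs (955 and 1041 cells) as the squared coefficient of variation beyond counting noise, and its median over 544 genes was 0.113. Acta2 had 0.182 and 0.163, with a median of 33 and 31 UMIs per cell. Myh11 had 0.170 and 0.159 and Lmod1 0.159 and 0.111, while Npnt had 0.311 and 0.296. In the order from most to least variable of the 544 genes, Npnt was at place 90, Acta2 at 181, Myh11 at 190 and Lmod1 at 280. Rgs5 had 3.04 and 3.26: its UMIs were seen in 44.4% and 43.5% of thinned VSMC, the median was 0, and the highest cell had 32 and 49 UMIs. Mono 1 cells had an Rgs5 UMI in 10.7% and 4.65% when thinned. Thinned EC 2 cells had one more often, in 31.4% and 25.2% of 35 and 163 cells. Unthinned shares were 55.3% and 58.6% of VSMC, against 17.1% and 11.1% of Mono 1 cells and 33.9% and 32.4% of EC 2 cells. The synuclein gene Sncg (4.35 and 4.28), Fos (4.05 and 3.62), the metallothionein Mt2 (4.25 and 2.76) and the matricellular gene Sparcl1 (3.58 and 2.39) were also among the 15 most variable.

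The most variable of all were 3 haemoglobin genes, with Hba-a2 at 51.3 and 91.5, followed by Dcn at 9.90 and 6.81. Single cells carried up to 318 and 258 of 2000 UMIs of Hba-a2 while the median was 1 and 0, and Hba-a1 and Hba-a2 went together across cells (Pearson r = 0.58 and 0.45 over 955 and 1041 cells). Across the same thinned cells Rgs5 went with Fn1 (r = 0.32 and 0.45) and against the calcium-binding gene S100a4 (-0.28 and -0.25), Mt2 went with Mt1 (0.43 and 0.50) and Fos with Btg2 (0.27 and 0.37). These correlations describe cells that share a library and a depth, and Acta2 with Myh11 gave 0.22 and 0.25.

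**Figure D4:**
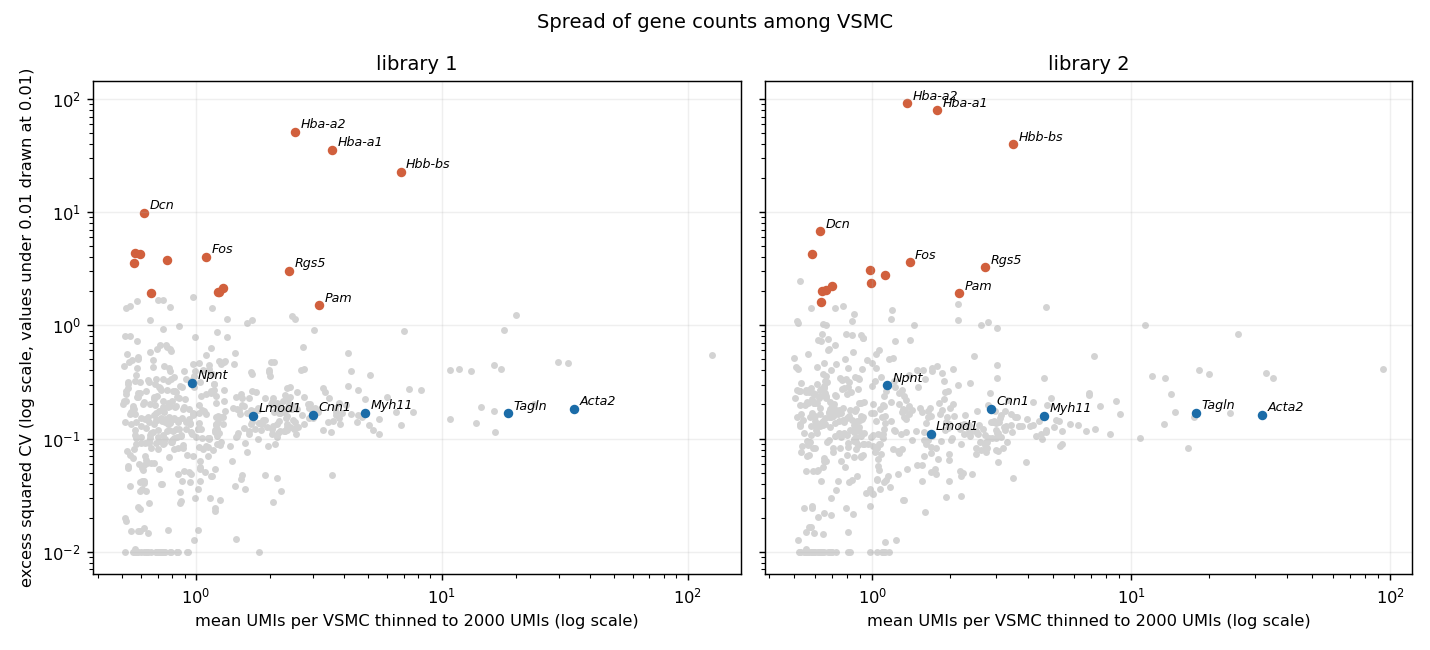
Squared coefficient of variation beyond counting noise against mean UMIs per thinned VSMC (log scales), 1 point per gene, for library 1 and library 2. Orange points are the 15 most variable genes, of which 7 are named, and blue points the 6 marker genes, which lie between 0.111 and 0.311.

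The 4 smooth muscle clusters of the second clustering were compared in the UMIs that the clustering had not used. Cells of 1 library are not replicates, so these are values from 2 libraries with no test, and differences are of log2(CPM + 5) between a cluster and the other 3. With the 2 parts of the UMIs exchanged, the clustering gave 18 clusters, of which 5 were smooth muscle. The number of smooth muscle clusters thus depended on the split, and how those 5 map onto the 4 described here was not examined. Each of the 4 clusters held the markers. Acta2 lay between 15495 and 23152 CPM and Lmod1 between 852 and 994 CPM in the 8 combinations of cluster and library. Npnt had 300 and 359 CPM in cluster 4, against 462 to 623 CPM in clusters 1 to 3.

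Cluster 4, with 108 and 161 cells (9.95% and 15.3% of smooth muscle), held high Rgs5. Rgs5 had 3306 and 3659 CPM in cluster 4, against 484 to 1756 CPM in clusters 1 to 3. Col8a1, a short-chain collagen, had 199 and 277 CPM in cluster 4 and 4.77 to 12.7 CPM in the others, a difference of 3.63 and 4.56. Pln (phospholamban, the brake on the calcium pump of the sarcoplasmic reticulum) had 91.3 and 94.7 CPM and 2.82 to 15.3 CPM in the others. These genes separated cluster 4 from every other cluster in both libraries. Desmin (Des, a muscle intermediate filament) had 482 and 636 CPM against 45.8 to 112 CPM, P2rx1 had 231 and 261 CPM against 15.3 to 68.9 CPM, and the actin-bundling Palld had 489 and 502 CPM against 42.0 to 102 CPM. Notch3, Gja4 (a gap junction protein), Timp4, Sparcl1 and Thbs1 were also higher by 1.62 to 3.07. Igfbp2, found in few VSMC, had 235 and 96.3 CPM in cluster 4 and 25.4 to 73.5 CPM in the others.

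Sost, Wif1 and Frzb, which inhibit Wnt signals, were lower in the same cluster. Sost had 199 and 151 CPM in cluster 4, against 337 to 916 CPM in clusters 1 to 3, Wif1 had 3.26 and 6.64 CPM against 11.9 to 84.0 CPM, and Frzb had 0 UMIs in cluster 4 of both libraries. The desmosome gene Dsp (-2.71 and -3.04), the adhesion gene Alcam (-2.47 and -2.63) and the microfibril gene Mfap4 (-2.07 and -2.12) were lower there as well. Positional genes were not alike in this respect. Hoxa10 had 55.4 and 71.4 CPM in cluster 4, against 3.82 to 22.0 CPM in the others, and Hoxc10 had 39.1 and 34.9 CPM against 1.91 to 22.0 CPM, on 12 and 21 UMIs. Tbx20 had 0 and 6.64 CPM in cluster 4, on 0 and 4 UMIs, and 28.6 and 23.2 CPM in cluster 2. Hoxa7 had 45.6 and 56.5 CPM in cluster 4, against 72.8 and 62.7 CPM in cluster 1. Hoxa5 and Hoxb3 were lowest in cluster 4 in both libraries, but on 3 and 5 UMIs for Hoxa5 and 1 and 2 UMIs for Hoxb3. Those counts are too few for a firm rank of the clusters. The aorta was dissociated whole, and where along it the cells lay was not measured here. Cluster 4 also held 7 of the 44 Neuron cells, and its cells had a median of 5565 and 7574 UMIs.

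Cluster 2, with 194 and 443 cells, stood opposite to cluster 4 in some genes but not in all. It had the most Sost (916 and 765 CPM), Wif1 (84.0 and 53.8 CPM), Frzb (72.5 and 20.4 CPM) and Alcam (147 and 120 CPM) of the 4 clusters in both libraries, and the metallothionein Mt1 at 2040 and 3122 CPM. Sparcl1, which was high in cluster 4, was lowest in cluster 1 (166 and 112 CPM) and not in cluster 2 (244 and 369 CPM). Hoxa10 had 3.82 and 6.13 CPM and Hoxc10 1.91 and 2.04 CPM there, on 1 and 3 UMIs for Hoxc10. Cluster 3, with 197 and 249 cells, had the most Fos, Junb, Fosb, Atf3 and Nr4a1, which are immediate early genes, of the 4 clusters in both libraries. Fos had 1414 and 1437 CPM in cluster 3, against 109 to 1178 CPM in the others, and Junb, Fosb, Atf3 and Nr4a1 were higher by 1.42 to 1.94 than in the others together. Cluster 4 had as much or more of other immediate early genes in library 2, with Egr1 at 404 CPM in cluster 3 and 425 CPM in cluster 4, and Jun at 405 CPM in cluster 3 and 488 CPM in cluster 4. The cells of cluster 3 were the deepest, with a median of 7522 and 8951 UMIs. The part of depth and of digestion in cluster 3 was not tested.

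Cluster 1, with 586 and 197 cells, took 54.0% of the smooth muscle of library 1 and 18.8% of library 2, and cluster 2 took 17.9% and 42.2%. Cluster 1 had the most haemoglobin RNA (Hba-a1 at 2966 and 3165 CPM, against 301 to 1470.1 CPM in the others) and its cells were the shallowest, with a median of 3763 and 5839 UMIs. Wnt16 (0.82 and 0.87), the matrix protein tenascin Tnc (0.80 and 0.70) and Vwc2, a BMP-binding protein (0.68 and 0.95), were higher in it than in the other clusters. S100a4 (-1.59 and -1.78) and Fos (-1.41 and -1.48) were lower. The part of red cell RNA and depth in this cluster was not tested.

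**Figure D5:**
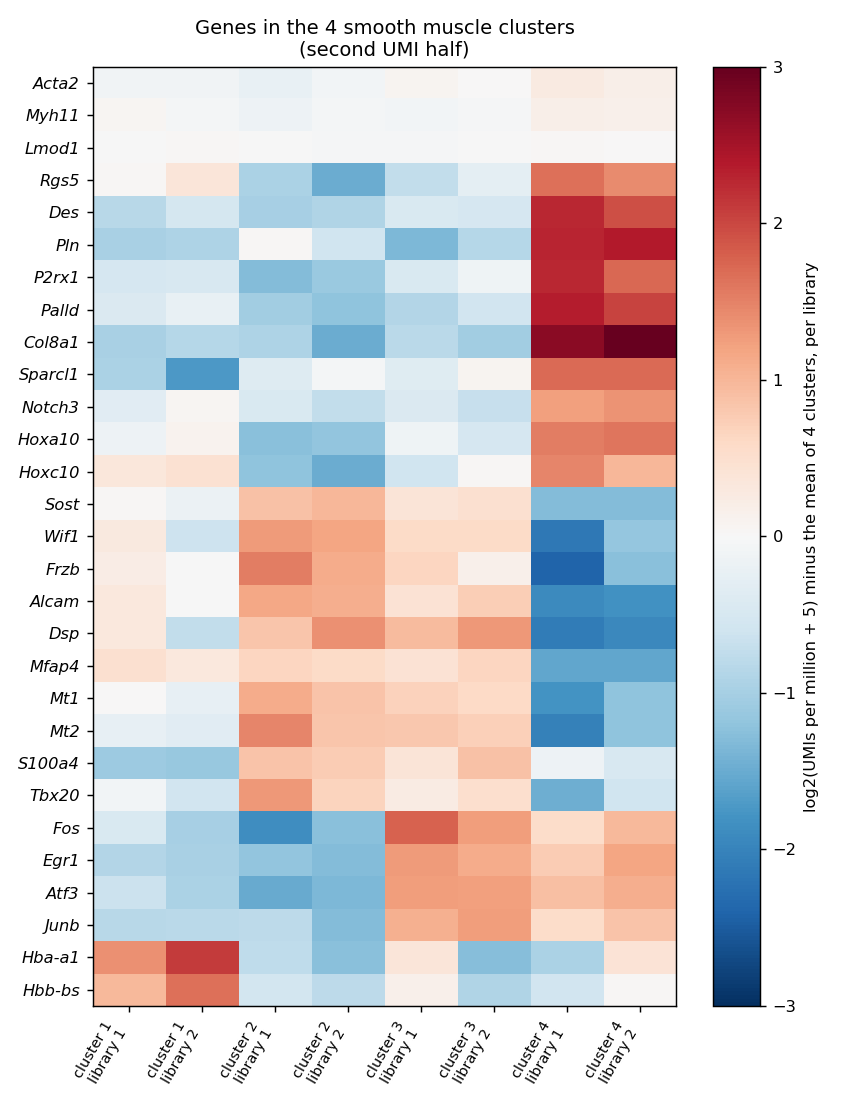
Log2(CPM + 5) of 29 genes in 4 smooth muscle clusters of each library, minus the mean of the 4 clusters in that library, from UMIs not used for clustering. Acta2, Myh11 and Lmod1 stay near 0 in every column, cluster 4 is high in Rgs5, Des, Pln, P2rx1, Palld and Col8a1 and low in Sost, Wif1 and Frzb, and Fos is highest in cluster 3.

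VSMC of the libraries were alike in most genes. Of 8749 genes with at least 100 UMIs in VSMC 8176 differed between library 2 and library 1 by less than 0.5 on the log2(CPM + 1) scale and 55 by at least 1, and the levels had r = 0.983 across genes, which are not independent replicates. The largest differences, after Xist and Ddx3y, were the fat cell genes Cfd (5.37 CPM in library 1 and 89.7 CPM in library 2), Cox8b (0.671 and 21.6 CPM) and Retn (0.504 and 14.7 CPM). Fibroblasts showed the same, with Cfd at 6.07 and 93.0 CPM, and so did Mono 1, where 6 adipocyte markers summed to 21.5 and 158 CPM, against 9.90 and 126 CPM in VSMC. Cebpb, a factor of inflammation and fat, had 229 CPM in VSMC of library 1 and 72.9 CPM in VSMC of library 2, and 304 and 87.1 CPM in fibroblasts. Zbtb16, known to be induced by glucocorticoids, had 55.9 and 177 CPM in VSMC and 112 and 232 CPM in fibroblasts. Other genes differed more in VSMC than in fibroblasts. The non-coding Gm26870 had 67.5 and 15.4 CPM in VSMC and 1.69 and 1.77 CPM in fibroblasts, with a UMI in only 1.99% and 0.865% of thinned VSMC. Frzb had 36.3 and 11.5 CPM in VSMC and 50.2 and 36.6 CPM in fibroblasts. With 1 library of each kind these differences have no replicate, and animal, label and handling cannot be told apart.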

How the data were processed

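Counts were UMIs per gene and cell in 1 table of 16971 genes and 5451 cells, deposited by the authors. The submitters' processing notes name Cell Ranger 2.1. Cell names came from the deposited metadata. The genome build, cell filters and naming method are not given in the sources used here. The totals were 11104066 and 19484171 UMIs for libraries 1 and 2, and intervals and floors (3 counts) cover counting error only. UMIs were summed by population and library and divided by the sum to give CPM. For tests, UMIs were split at random into 2 parts (seed 7). Part 1 was clustered with scanpy 1.11.5 (2000 variable genes, 20 components, 15 neighbours, Leiden resolution 0.8) and clusters were named from fixed markers. Part 2 was tested with edgeR 4.0.16 in R 4.3.3 (quasi-likelihood, TMM, filterByExpr, class and library as terms, 10 columns, 4 residual degrees of freedom, common dispersion 0.00553), with Benjamini-Hochberg adjustment over all genes tested. DESeq2 1.42.0, other scalings and filters, exchanged parts, thinned cells and left-out doublets (Scrublet) were tried as alternatives. The edgeR step was tested on simulated data of smooth muscle against fibroblasts: 71 of 100 genes changed 2-fold and 91 of 100 changed 4-fold were recovered, with 11 other genes called of 9831. The simulation gave every gene the common dispersion and no difference between classes beyond the changed genes. In the data far more genes differed, so these rates may not carry over.

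The cells, members and gene lists were chosen with earlier results of these data known. Genes were named by rule: the markers, the contractile list, up to 7 members of each other list with the largest fold or level, the 20 highest ratios to other populations, 10 folds in each direction, the 15 most variable and the 10 that differed most between libraries. Other genes, among them those of the clusters, were chosen after their values were seen. 1 gene that the rule names is not reported here. Libraries of the Western diet and of low depth are not used here.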

Additional observations from a re-analysis of the deposited data

How the results depend on the processing

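Of 8 other settings, the count of genes called against fibroblasts (4508) moved by over 1.5 times under DESeq2 (2981) and in thinned cells (2779), and otherwise lay between 3649 and 5444. Against the mean of the other classes (5229) it moved in thinned cells (3293), where fewer genes were tested (8160 instead of 10737), and otherwise lay between 4076 and 6404. RLE size factors shifted the median of all genes from 0.01 to -0.07 against fibroblasts and lowered the share of higher calls from 48.2% to 41.4%, and DESeq2 gave 39.2%, while against the other classes the share went from 52.0% to 44.1% and 42.1%. The count of genes 4-fold over every other population (39) became 104 at 2-fold, 45 to 69 with either library alone and 67 without Neuron, an alternative chosen after seeing the data, and 37 to 45 with equal weight of cells, thinning, fewer UMIs or doublets left out. The mean VSMC share was 41.1% without doublets and 42.0% in cells with at least 2000 UMIs. Of 1802 folds of named genes under other settings, 1749 kept direction and call, 42 lost and 10 gained the call. Hba-a2 reversed, to 0.04 in thinned cells and, by deposited names, to 0.01 with equal weight of cells, and the cause was not tested. The fit compared classes within libraries through its library term, and without that term 3649 and 4554 genes were called. Neither library alone leaves residual degrees of freedom for a test.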

Other observations

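Antigen presentation and division genes were low in VSMC, at levels near those of fibroblasts. The 7 MHC class II genes summed to 214 and 152 CPM in VSMC, against 285 and 132 CPM in fibroblasts. Between smooth muscle and fibroblast clusters 0 of 7 were called (edgeR). Against the mean of the other classes, which includes the immune class, 6 were lower, where 23.4% of all genes were. The 10 cell cycle genes summed to 6.04 and 11.2 CPM in VSMC, against 6.07 and 8.57 CPM in fibroblasts. Of 10 cell cycle genes 4 passed the filter, and Top2a was called higher than in fibroblasts (4.65 ± 1.48, adjusted p = 0.00517), on 1 and 18 UMIs in VSMC from 1 and 3 cells and 0 and 1 UMIs in fibroblasts. The 4 haemoglobin genes were called lower in smooth muscle than in fibroblasts, at a median of -0.48, but Hba-a2 turned to 0.04 in thinned cells. Thinned VSMC had a Wif1 UMI in 6.18% and 5.76% of cells, against 0 of 149 and 0 of 258 thinned Mono 1 cells.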
